A study of Mus musculus with 6 samples.

Results

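The NRF2 antioxidant defence genes are the regulator Nfe2l2, its inhibitor Keap1, and 8 of their known targets, Nqo1, Gclc, Gclm, Hmox1, Txnrd1, Srxn1, Slc7a11 and Osgin1. The 10 genes were taken by name. Every peak whose summit lay in the gene body or within 20 kb of it was assigned to the gene (mouse build GRCm38, GENCODE annotation), which gave 98 regions of open chromatin out of 99359 in the whole series. Of these, 10 were the genes' own promoters (within 1 kb of an annotated start of the gene), 7 lay within 1 kb of the start of another gene, and 81 were distal, more than 1 kb from any start in the basic GENCODE set.

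The peaks come from ATAC-seq, in which a transposase cuts accessible DNA and attaches sequencing adapters, so that open regulatory DNA gives peaks. The 6 libraries were made from S1 proximal tubules, the stretch of the nephron just after the glomerulus, dissected by hand from kidneys of wild-type male C57BL/6 mice aged 7 weeks, with 3 tubules in each library. Each operation, a sham operation (Sham) or unilateral nephrectomy, the surgical removal of one kidney (UNx), is represented by 3 libraries at 24 h, and the series asks how accessibility responds to that loss. The labels do not say that each library is a different mouse, so p-values measure only the spread between these libraries, which may be technical.

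NRF2, the protein made from Nfe2l2, is a transcription factor that KEAP1 holds in the cytoplasm and hands to a ubiquitin ligase for breakdown. Oxidants and electrophiles modify KEAP1, and NRF2 then enters the nucleus, pairs with a small MAF protein and binds antioxidant response elements near genes of glutathione synthesis, thioredoxin recycling, heme breakdown and quinone reduction. The proximal tubule, with its many mitochondria and high transport load, is a site in the kidney where this defence has been much studied.

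Strength is given as a percentile rank. The deposited lists hold 77355 to 100999 peaks, each was reduced to its 77355 strongest, and every peak was ranked within its own list by the peak caller's −log10 q, with 100 the strongest and 0 a region not among those peaks. The files give no read counts, so sequencing depth is unknown, and the median −log10 q ran from 12.1 in Sham 2 to 26.5 in UNx 3. The labelled cell type was checked at marker promoters: 6 of 6 S1 genes were open in all 6 lists (mean ranks 65.1 to 94.5), 3 of 3 immune genes were at 0 in all 6, and of the other lists 3 of 4 thick ascending limb and distal tubule genes, 1 of 3 collecting duct, 1 of 3 podocyte and 1 of 3 stromal genes were open in all 6. Those of the other lists that were open in all 6 reached mean ranks like those of S1 genes in part. Scnn1g (collecting duct) stood at 89.9, Umod at 67.4, Calb1 at 65.6 and Slc12a1 at 43.5 (thick ascending limb and distal tubule). Col1a1 (stroma) stood at 65.1 and Wt1 (podocyte) at 48.5. Slc12a3, Aqp2, Atp6v1g3, Pdgfrb and Tagln were at 0. The 3 endothelial promoters had mean ranks of 4.09 to 11.9 in Sham and 0 in UNx libraries, and the part of this in any difference between the operations was not tested.

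The sequences in which NRF2 would be looked for are shown first, since several of the regions described below hold the motif. The core of the antioxidant response element was searched as TGACNNNGC, on both strands, within 100 bp of the strongest summit of each region. It occurred in 16 of the 98 regions (16.3%), against 11.2% of all 99359 regions with the same window. Within 50 bp of the summit it occurred in 8, against 6.49% of all regions, with a further A at its end in 7, against 3.85%, and anywhere in the region in 26, against 24%. The related AP-1 string TGANTCA, which can share its bases, occurred in 10 (10.2%) against 7.39% of all regions. Hmox1 held the string in 4 of its 7 regions and Slc7a11 in 0 of 8. A match is a description of the letters and does not show binding. The region of Hmox1 at −9659 bp (distance of the summit from the nearest start of the gene, negative upstream) held 3 copies, each overlapping the AP-1 string, and 38 of all 99359 regions (0.0382%) held 3 or more. The sequences below are read from the GRCm38 RefSeq assembly on the plus strand, 100 bp on either side of the summit or as far as the first annotated exon, with each match in capitals. All of these matches lie on the minus strand, so the capitals read as the reverse complement of TGACNNNGC.
Hmox1 at −9659 bp, chr8:75083862-75084062: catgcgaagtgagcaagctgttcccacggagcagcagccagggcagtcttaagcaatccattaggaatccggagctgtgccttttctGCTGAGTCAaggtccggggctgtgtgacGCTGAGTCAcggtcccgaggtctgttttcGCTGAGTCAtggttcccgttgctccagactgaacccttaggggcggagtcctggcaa
Hmox1 at −6322 bp, chr8:75087199-75087399: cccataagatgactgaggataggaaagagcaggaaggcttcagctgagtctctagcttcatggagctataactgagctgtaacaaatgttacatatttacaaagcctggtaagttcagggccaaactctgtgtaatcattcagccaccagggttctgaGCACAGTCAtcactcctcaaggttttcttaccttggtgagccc
Hmox1 at −3965 bp, chr8:75089556-75089756: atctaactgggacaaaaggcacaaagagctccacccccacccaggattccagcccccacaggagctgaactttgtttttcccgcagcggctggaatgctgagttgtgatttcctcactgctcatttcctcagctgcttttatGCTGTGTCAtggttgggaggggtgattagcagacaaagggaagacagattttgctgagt
Gclc at −3722 bp, chr9:77750713-77750913: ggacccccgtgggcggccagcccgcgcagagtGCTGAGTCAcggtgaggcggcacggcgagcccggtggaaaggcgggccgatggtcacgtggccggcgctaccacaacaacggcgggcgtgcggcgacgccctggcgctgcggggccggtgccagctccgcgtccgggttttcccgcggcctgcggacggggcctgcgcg
Gclm promoter, chr3:122245391-122245556: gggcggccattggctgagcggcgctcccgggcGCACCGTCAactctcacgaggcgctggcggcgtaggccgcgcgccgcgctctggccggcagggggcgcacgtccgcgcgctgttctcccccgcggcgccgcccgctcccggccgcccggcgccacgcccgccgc
Txnrd1 promoter, chr10:82859052-82859178: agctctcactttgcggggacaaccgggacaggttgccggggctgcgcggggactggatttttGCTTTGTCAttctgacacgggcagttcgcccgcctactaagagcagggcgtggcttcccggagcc
The region of Osgin1 at −3329 bp, which was present in the 3 UNx lists and no Sham list, had no match in its window and is shown for contrast.
Osgin1 at −3329 bp, chr8:119433689-119433889: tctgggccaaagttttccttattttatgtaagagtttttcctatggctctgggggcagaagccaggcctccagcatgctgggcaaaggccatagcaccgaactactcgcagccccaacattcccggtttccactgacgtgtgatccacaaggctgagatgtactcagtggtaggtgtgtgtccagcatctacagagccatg

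Across the 98 regions the operations looked much alike. The Sham lists held 79, 73 and 70 of them and the UNx lists 74, 79 and 76, or 74 ± 4.58 and 76.3 ± 2.52 (SD, n = 3 each). The difference of 2.33 regions was within the spread between libraries (two-sided exact permutation p = 0.5, with 0.1 the smallest that this design allows), and it changed sign with other ways of ranking (−2.33 with the 20000 strongest peaks and −1.67 with ranking by fold enrichment). In all 6 lists stood 55 regions (56.1%, against 53.4% of all merged regions), and 12 were in 1 list. A lower rank can mean fewer open cells or less open DNA per cell, and these cannot be told apart here.

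The 80 regions present in at least 3 lists were tested with limma together with all other such regions, 74781 in all. limma called 0 of the 80 at an adjusted p under 0.05, where it called 0.788% of all tested regions (0.435% higher and 0.353% lower after UNx). Without adjustment, 13 of the 80 had a p under 0.05, as had 18.6% of all tested regions. In 18 of the 80 (22.5%) the 3 UNx ranks lay wholly above or below the 3 Sham ranks, 8 above and 10 below, which is close to the 23.7% of all tested regions (12% above and 11.7% below). Of these 18, 3 were absent from every list of one operation and passed the filter of 3 lists through the other operation alone, so that they had to differ, and their p-values are not given. The Gclc region at 12545 bp and the Hmox1 region at 14513 bp were each in 1 Sham list. Their 3 UNx lists alone met the filter, and their p-values are not given either. The median difference (UNx minus Sham) was −1.01 percentile points over the 80 regions, with 38 higher, and −0.0112 over all tested regions.

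Presence in only one operation was rare. Of the 98 regions, 2 were in all 3 UNx lists and no Sham list and 1 was in all 3 Sham lists and no UNx list, against 1.98% of all merged regions (1.04% and 0.934%). The 2 UNx regions lie upstream of Osgin1 and the Sham region lies in an intron of Txnrd1. The count was 5 without Sham 1, without Sham 3 or without UNx 1, where fewer lists have to agree.

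**Figure D1:**
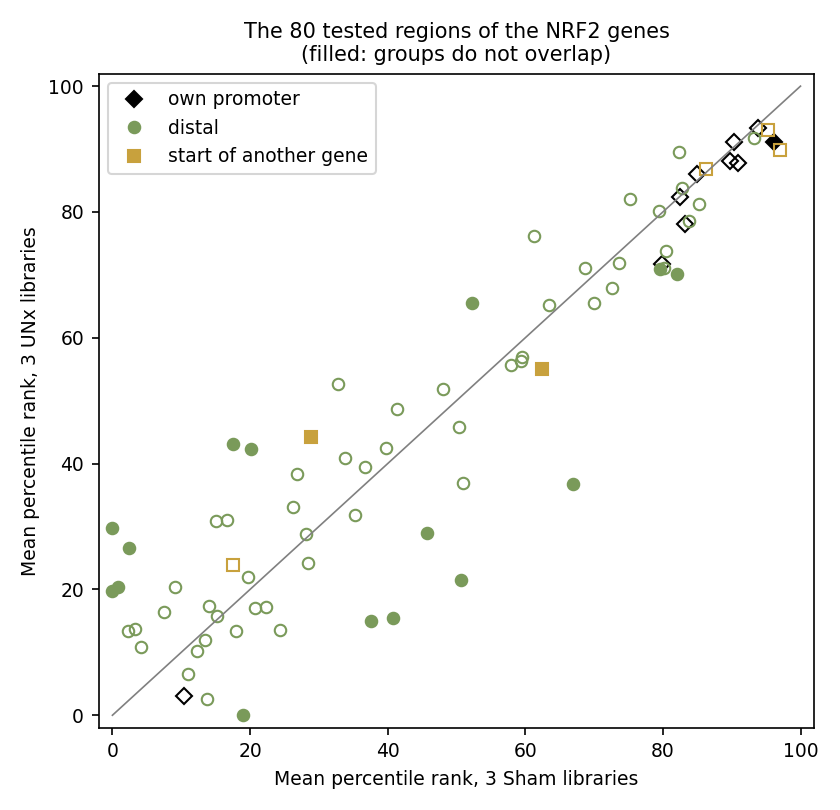
Mean percentile rank of the 80 tested regions in the 3 Sham libraries (horizontal axis) and the 3 UNx libraries (vertical axis), with 0 for absence and the diagonal for equal ranks. Diamonds are the genes' own promoters, circles are distal regions and squares are starts of other genes, and the 18 filled symbols are regions whose groups do not overlap. The promoters other than Slc7a11 lie near the upper end of the diagonal, and the filled circles lie farther from it.

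At the promoters, 9 of the 10 genes had a region in all 6 lists. Their ranks averaged over the 6 libraries were, from the highest, 93.6 ± 4.05 for Nfe2l2, 93.6 ± 2.88 for Gclm, 90.7 ± 2.73 for Nqo1, 89.4 ± 2.56 for Hmox1, 88.9 ± 2.77 for Txnrd1, 85.6 ± 2.83 for Srxn1, 82.5 ± 4.50 for Keap1, 80.6 ± 6.27 for Osgin1 and 75.8 ± 7.16 for Gclc (SD, n = 6). Slc7a11 stood apart at 6.72 ± 12.3. Steps between neighbours in this order were within the larger SD of the pair, except Gclm to Nqo1 (2.92 points), Txnrd1 to Srxn1 (3.37) and Gclc to Slc7a11 (69.1). Among the 13203 promoters of protein-coding genes with a region in at least 3 lists, that of Nfe2l2 ranked above 72.0%. That of Gclc ranked above 30.9% of them and that of Slc7a11 above 0.879%. Coding promoters in fewer lists are not in this comparison.

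After UNx, 2 of the 10 promoters had the higher mean, Srxn1 and Nqo1, and the median difference was −2.30 points, against −0.190 over all 13203 tested protein-coding promoters, of which 47.1% had the higher mean after UNx. limma called 0 of the 10 and 0.394% of all coding promoters. Without adjustment 1 of the 10 had a p under 0.05, against 1740 of the 13203 coding promoters. The groups did not overlap at 1 of the 10, Gclm, against 19.9% of all coding promoters. The 2 promoters with a higher UNx mean had differences of 1.06 and 0.77 points, which were negative with GC-corrected ranks and with ranking by fold enrichment.

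**Figure D2:**
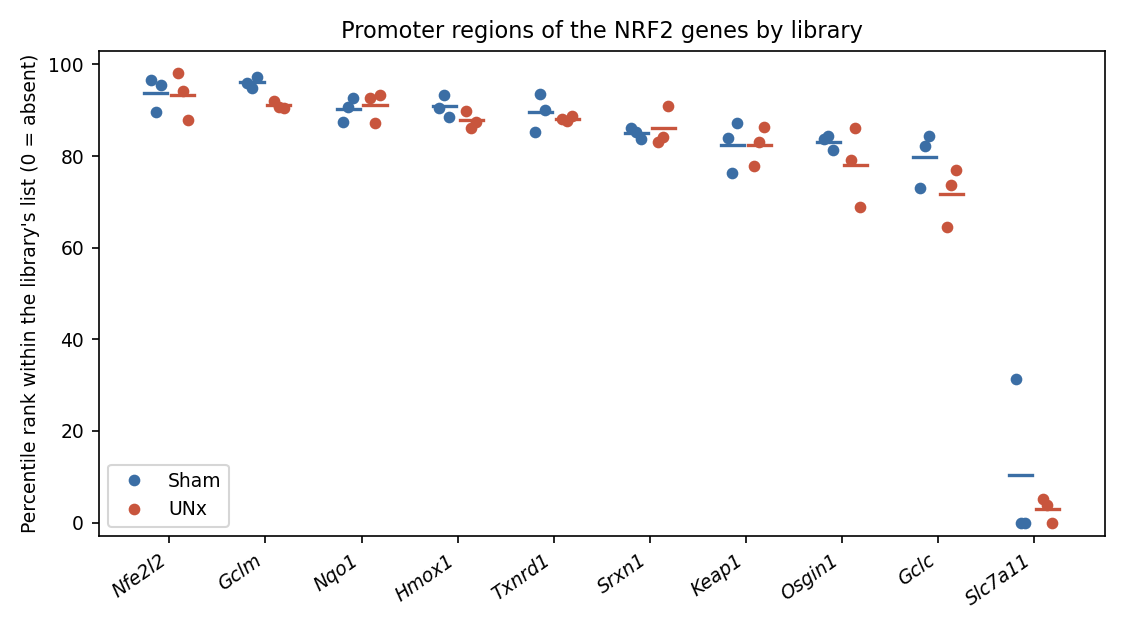
Percentile rank of the promoter region of each of the 10 genes in each library, in order of mean rank, with a bar at the mean of each operation and 0 for absence. Points of the 2 operations overlap at every gene other than Gclm, where the Sham libraries lie at 95.0 to 97.3 and the UNx libraries at 90.5 to 92.1, and Slc7a11 is lowest, at 0 to 31.3.

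The regulator and its inhibitor came first. The Nfe2l2 promoter (chromosome 2) ranked at 96.7, 89.6 and 95.4 in Sham 1, 2 and 3 and at 98.0, 94.1 and 87.8 in UNx 1, 2 and 3. The Keap1 promoter (chromosome 9) ranked at 83.9, 76.3 and 87.3 in Sham and at 77.8, 83.1 and 86.4 in UNx libraries. Both operations span the same range at both promoters, and the differences were −0.55 (SE 2.38; limma adjusted p = 0.931) and −0.08 (SE 3.67; limma adjusted p = 0.994). With fixed windows around summits as regions, the Keap1 difference was −28.9 points (limma adjusted p = 0.642).

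Around both genes the groups did not overlap at a few regions. These were 1 of the 10 tested regions of Nfe2l2 (10%) and 2 of the 9 of Keap1 (22.2%), against 23.7% of all tested regions. An intron region of Nfe2l2 at 23104 bp (chromosome 2, 75681228 to 75681844), with 1 antioxidant response string, ranked at 25.6, 34.9 and 0 in Sham and at 41.9, 38.2 and 46.9 in UNx libraries. All UNx values lay above all Sham values, by 22.1 points on average (SE 11.2; limma adjusted p = 0.299), and 7 of the 8 tested distal regions of Nfe2l2 had the higher mean after UNx (median 2.76). Upstream of Keap1, the region at −2179 bp (chromosome 9, 21241402 to 21241680) ranked at 38.9, 50.8 and 32.8 in Sham and at 16.8, 16.9 and 12.8 in UNx libraries. Its UNx values were all lower (difference −25.3, SE 10.5; limma adjusted p = 0.207). Of the 6 tested distal regions of Keap1, 1 had the higher mean after UNx (median −6.67). Those at 27771 and −5263 bp, both lower after UNx, were each in 3 Sham lists and 1 UNx list. Their Sham lists alone met the filter of 3 lists, so this count leans towards lower values. Over all tested regions more than 1 kb from a start, 49.8% had the higher mean after UNx, and limma called none of the distal regions of either gene.

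The strongest distal region of Keap1, at 18095 bp downstream of its start and holding 1 antioxidant response string, ranked at 93.9, 94.9 and 91.0 in Sham and at 92.2, 93.2 and 89.9 in UNx libraries (limma adjusted p = 0.719). It was as open as a promoter in every library. The strongest distal region of Nfe2l2, at 29630 bp, ranked at 28.0, 45.2 and 50.9 and at 59.7, 41.3 and 44.9 (limma adjusted p = 0.719). A region inside the 20 kb window of Nfe2l2 at 45495 bp sits 115 bp from the start of Hnrnpa3, an RNA-binding protein gene, and ranked at 97.6, 97.2 and 96.4 in Sham and at 82.5, 90.7 and 96.5 in UNx libraries. It also held the string, and UNx 3 matched the Sham level there while UNx 1 did not (difference −7.17, SE 2.52; limma unadjusted p = 0.0107, adjusted p = 0.144).

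Glutathione is made by glutamate-cysteine ligase, with Gclc its catalytic and Gclm its modifier subunit, from cysteine that the exchanger subunit Slc7a11 brings in as cystine. The Gclm promoter (chromosome 3, 122245242 to 122246381), with an antioxidant response string 64 bp upstream of its summit, ranked at 95.9, 95.0 and 97.3 in Sham and at 92.1, 90.7 and 90.5 in UNx libraries. The groups did not overlap, and the difference of −4.96 points (SE 1.69) had a limma unadjusted p of 0.00862 and an adjusted p of 0.133. In both operations the region remained among the strong promoters. The Gclm intron region at 1757 bp went the other way in its means, with 82.5, 75.9 and 67.1 in Sham and 80.8, 87.5 and 77.9 in UNx libraries (6.91 points, SE 4.54; limma adjusted p = 0.432).

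The Gclc promoter (chromosome 9) ranked at 73.0, 82.2 and 84.5 in Sham and at 64.5, 73.7 and 76.9 in UNx libraries. The groups overlap, with Sham 1 below UNx 2 and UNx 3 (difference −8.17, SE 4.85; limma adjusted p = 0.380). Of the 12 tested regions of Gclc, promoter included, 3 had the higher mean after UNx (median −4.63), against 49.9% of all tested regions. The region at −3722 bp (chromosome 9, 77750309 to 77751396), whose match also holds the AP-1 string, ranked at 76.9, 85.0 and 79.5 in Sham and at 69.6, 69.7 and 82.0 in UNx libraries (−6.68 points; limma adjusted p = 0.458). An intron region at 11872 bp with the string ranked at 55.4, 49.7 and 47.7 and at 33.8, 28.9 and 47.9 (−14.1 points; limma adjusted p = 0.418), with UNx 3 at the Sham level. A neighbour of it at 12545 bp was almost confined to the UNx lists. It ranked at 2.61, 0 and 0 in Sham and at 24.8, 23.5 and 12.7 in UNx libraries (19.5 points). Its 3 UNx lists alone met the filter of 3 lists, so its p-values are not given. These intron regions lie 265 and 938 bp from a start that the comprehensive GENCODE annotation lists for Gclc and its basic set does not. The strongest distal region, 52434 bp from the start and downstream of the gene, ranked at 82.0, 86.4 and 82.9 and at 78.5, 84.9 and 72.2 (limma adjusted p = 0.484).

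Slc7a11 was nearly closed at its start. Its promoter ranked at 31.3, 0 and 0 in Sham and at 5.08, 3.92 and 0 in UNx libraries, with Sham 1 the one library clearly above 0 (difference −7.44, SE 8.71; limma adjusted p = 0.690). The gene body, which is the longest of the 10 genes, nevertheless held stronger regions. An intron region at 61907 bp ranked at 66.9, 82.2 and 68.5 in Sham and at 73.2, 69.7 and 60.6 in UNx libraries (−4.70 points; limma adjusted p = 0.705). With fixed windows around summits its difference was −49.3 points (limma adjusted p = 0.259). Another at 139293 bp (chromosome 3, 50304204 to 50304441) ranked at 50.4, 51.8 and 49.6 in Sham and at 5.08, 25.2 and 34.1 in UNx libraries. The 3 Sham libraries lay close together there while every UNx library was lower (difference −29.2, SE 10.3; limma unadjusted p = 0.0112, adjusted p = 0.146).

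Txnrd1, thioredoxin reductase, and Srxn1, sulfiredoxin, which repairs overoxidised peroxiredoxins, serve the thioredoxin branch. The Txnrd1 promoter (chromosome 10) ranked at 85.3, 93.6 and 90.1 in Sham and at 88.1, 87.7 and 88.7 in UNx libraries (−1.52 points, SE 2.44; limma adjusted p = 0.786). The 3 UNx values lie inside the Sham range. Txnrd1 had the most regions of the 10 genes, 15, of which 12 were tested. At 4 of its 11 tested distal regions (36.4%) the groups did not overlap, 1 higher and 3 lower after UNx, against 24.4% of all tested regions more than 1 kb from a start. Of the 3 lower ones, 1 passed the filter of 3 lists through the Sham lists alone.

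An intron region of Txnrd1 at 4628 bp (chromosome 10, 82838431 to 82838756) ranked at 15.7, 27.9 and 13.2 in Sham and was absent from the 3 UNx lists of equal length. It was present in all 6 full deposited lists, so its absence means a place below the 77355 strongest peaks. Downstream of the gene, the region at 41334 bp ranked at 78.9, 83.6 and 83.8 and at 71.9, 78.3 and 60.1 (−12.0 points; limma adjusted p = 0.201), and that at 49198 bp at 27.1, 41.8 and 43.9 and at 0, 18.8 and 26.3 (−22.6 points; limma adjusted p = 0.290). The intron region at 31311 bp lay the other way, at 52.8, 48.6 and 55.5 in Sham and 61.4, 67.0 and 68.0 in UNx libraries (13.1 points; limma adjusted p = 0.294). The strongest distal region, in an intron at 16118 bp, ranked at 87.9, 85.6 and 82.3 and at 81.4, 83.8 and 78.4 (limma adjusted p = 0.522).

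Srxn1 differed little. Its promoter (chromosome 2), with 1 antioxidant response string, ranked at 86.1, 85.2 and 83.7 in Sham and at 83.2, 84.2 and 90.9 in UNx libraries (1.06 points, SE 2.88; limma adjusted p = 0.883). With fixed windows around summits as regions the difference was −26.7 points (limma adjusted p = 0.695). The region at 6606 bp, just downstream of the gene, ranked at 82.5, 82.6 and 73.0 and at 80.6, 82.3 and 77.4 (limma adjusted p = 0.947). The groups overlapped at all 4 tested regions of Srxn1.

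Nqo1 encodes a quinone reductase and is a standard readout of NRF2 activity. Its promoter (chromosome 8) ranked at 87.3, 90.8 and 92.8 in Sham and at 92.6, 87.3 and 93.3 in UNx libraries, with the groups interleaved (0.77 points, SE 2.27; limma adjusted p = 0.893). In an intron at 12276 bp (chromosome 8, 107390448 to 107391407) the ranks were 86.2, 77.3 and 83.6 in Sham and 92.1, 85.4 and 91.3 in UNx libraries. Sham 1 lies just above UNx 2, so the groups overlap (7.23 points, SE 3.02; limma unadjusted p = 0.0273, adjusted p = 0.208). Upstream, in an intron of the neighbouring gene Nob1 at −14038 bp, the groups did not overlap, with 44.4, 45.8 and 46.9 in Sham and 22.2, 36.0 and 28.7 in UNx libraries (−16.7 points; limma adjusted p = 0.360). The one Nqo1 region with the antioxidant response string, at 24329 bp, was in 2 Sham lists, at 6.51 and 5.29, and was not tested.

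Hmox1, heme oxygenase, breaks heme down to biliverdin, iron and carbon monoxide, and is known for enhancers upstream of its start that carry antioxidant response elements. Its 3 upstream regions, all with the string and all shown above, had unlike rank differences, and limma called none of them. The region at −3965 bp (chromosome 8, 75089298 to 75090102) ranked at 71.5, 69.0 and 65.3 in Sham and at 71.7, 68.4 and 73.1 in UNx libraries (2.48 points, SE 5.15; limma adjusted p = 0.843). The region at −9659 bp (chromosome 8, 75083631 to 75084444), with 3 strings, ranked at 55.9, 72.3 and 55.6 in Sham and at 89.2, 55.0 and 84.4 in UNx libraries. UNx 1 and UNx 3 were above every Sham library and UNx 2 was below every one (14.9 points, SE 7.65; limma unadjusted p = 0.0666, adjusted p = 0.305). Without UNx 2 the difference was 25.5 points (limma adjusted p = 0.0639; range over the alternatives 0.0639 to 0.685).

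The region at −6322 bp (chromosome 8, 75087144 to 75087458) had the smallest p of all 80 tested regions. It ranked at 70.3, 57.9 and 72.5 in Sham and at 30.0, 35.6 and 44.9 in UNx libraries. Every UNx library lay below every Sham library (difference −30.1, SE 7.96; limma unadjusted p = 0.00135, adjusted p = 0.0724). It was past the threshold with normal scores of the ranks (limma adjusted p = 0.0434) and in no other alternative run (range 0.0434 to 0.239). It was present in all 6 lists, and its string lies 62 bp from the summit.

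The Hmox1 promoter itself ranked at 90.6, 93.4 and 88.6 in Sham and at 89.9, 86.2 and 87.4 in UNx libraries, with UNx 1 above Sham 3 (−3.08 points, SE 2.26; limma adjusted p = 0.491). Downstream, a region at 14513 bp with the string (chromosome 8, 75108004 to 75108283) ranked at 7.14, 0 and 0 in Sham and at 24.8, 28.8 and 26.4 in UNx libraries (24.3 points). Its 3 UNx lists alone met the filter of 3 lists, so its p-values are not given. It was nearly confined to the UNx lists, also among all deposited peaks, where 1 Sham list and 3 UNx lists held it. It lies 1435 bp from the start of Mcm5, a replication helicase gene, whose start region within the Hmox1 window had a difference of −2.26 points (limma unadjusted p = 0.221).

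Osgin1, an oxidative-stress induced growth inhibitor, was the gene with the most separated regions, 5 of its 11 tested (45.5%, against 23.7% of all tested regions), 3 higher and 2 lower after UNx. Of the 3 higher ones, 2 passed the filter of 3 lists through the UNx lists alone. Its promoter (chromosome 8) ranked at 83.8, 84.4 and 81.4 in Sham and at 79.1, 86.2 and 68.8 in UNx libraries (−5.14 points, SE 4.21; limma adjusted p = 0.544), so the groups overlapped at the start.

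Several weaker upstream regions of Osgin1 were higher in every UNx library. The region at −3329 bp (chromosome 8, 119433576 to 119433892) was at 0 in the 3 Sham lists and at 33.4, 22.7 and 33.3 in the UNx lists. No full deposited Sham list held it either. It lies at −335 bp from the outermost start of Osgin1 in the comprehensive annotation, a start that the basic set leaves out. The region at −8590 bp, also at 0 in Sham and in no full deposited Sham list, ranked at 3.44, 16.8 and 39.1 in UNx libraries. That at −6652 bp ranked at 25.8, 13.3 and 13.7 in Sham and at 33.2, 46.8 and 49.3 in UNx libraries (25.5 points, SE 10.5; limma adjusted p = 0.204). These 3 regions ranked below 50 in every library.

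Stronger regions of Osgin1 were lower after UNx or near equal in the merged intervals. The region at −12702 bp ranked at 81.2, 79.6 and 78.0 in Sham and at 74.4, 70.4 and 68.1 in UNx libraries (−8.64 points; limma adjusted p = 0.302). The intron region at 3379 bp ranked at 73.8, 87.3 and 87.2 and at 82.1, 88.7 and 80.7 (1.07 points; limma adjusted p = 0.915). With fixed windows around summits its difference was 25.7 points (limma adjusted p = 0.704). The antioxidant response string occurred in 1 Osgin1 region, at −7317 bp, with 2 copies in a region that 1 list of equal length held, at 4.70 in UNx 2. None of the separated Osgin1 regions held the string.

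**Figure D3:**
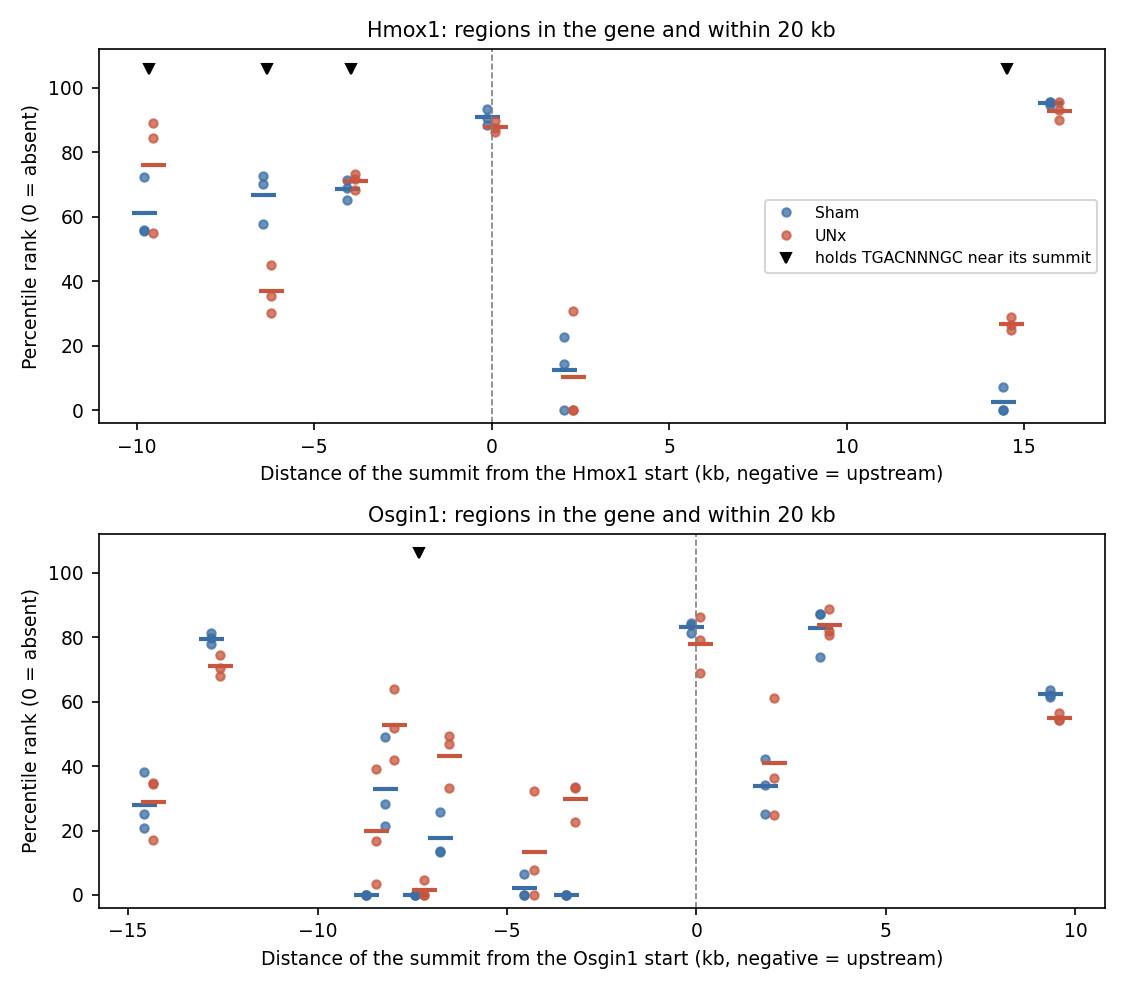
Percentile rank of every region of Hmox1 (upper panel) and Osgin1 (lower panel) against the distance of its summit from the start of the gene in kb, one point per library and a bar at the mean of each operation, with 0 for absence. Triangles mark regions holding TGACNNNGC within 100 bp of the summit. The Hmox1 region at −6322 bp has its UNx points at 30.0 to 44.9, under its Sham points at 57.9 to 72.5, and the Osgin1 region at −3329 bp has its Sham points at 0.

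Over the 81 distal regions of the 10 genes, the Sham lists held 62, 58 and 56 and the UNx lists 58, 63 and 61 (58.7 ± 3.06 and 60.7 ± 2.52, SD, n = 3 each; two-sided exact permutation p = 0.5, again with 0.1 the smallest). Of the 64 tested, 33 had the higher mean after UNx, against 49.8% of all tested regions more than 1 kb from a start. The median difference of 0.675 points was negative without UNx 2 (−1.60) and without UNx 3 (−1.08). The groups did not overlap at 15 of 64, against 24.4% of all tested regions more than 1 kb from a start. Of the 6 tested regions at starts of other genes, the groups did not overlap at 2, against 21.3% of all tested regions within 1 kb of a start. These 2 belong to S1pr5 near Keap1 and Necab2 near Osgin1 (15.4 points, limma adjusted p = 0.411, and −7.40 points, limma adjusted p = 0.576). Regions described for groups that did not overlap were in part chosen after their values were seen, and none of the 18 was called by limma.

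**Figure D4:**
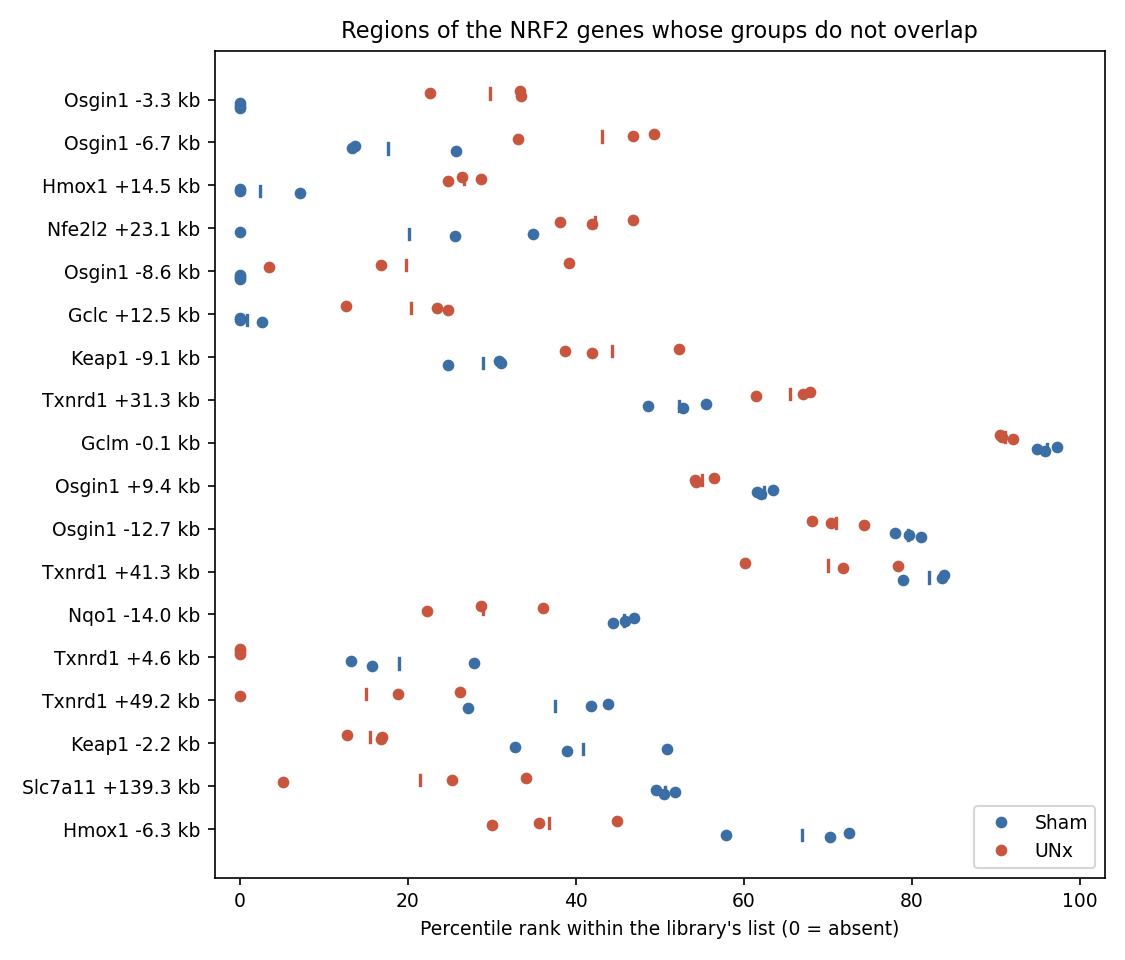
Percentile rank in each library of the 18 regions whose 3 UNx and 3 Sham values do not overlap, with a tick at the mean of each operation and 0 for absence, sorted by difference. Rows are named by gene and distance of the summit from its start in kb. The 8 upper rows are higher after UNx, from Osgin1 at the top, and the 10 lower rows are higher in Sham, with the Gclm promoter the one with the smallest difference.

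Holding the string did not go with one direction. Among the 12 tested regions with TGACNNNGC, 5 had the higher mean after UNx, the median difference was −1.50 points and the groups did not overlap at 4, which are the Nfe2l2 intron region, the Gclm promoter and the Hmox1 regions at −6322 and 14513 bp, 2 in each direction. That is 33.3% of the 12, against 23.3% of all tested regions of the series with the string. Among the 68 tested regions without it the median was −0.317 points and the groups did not overlap at 14 (20.6%). Over the 8522 tested regions of the series with the string the median was 0.326, with 51.9% higher after UNx. limma called 0 of the 12, with 4 at an unadjusted p under 0.05, where 18.6% of all tested regions stood. Both counts of 4 include the Hmox1 region at 14513 bp, whose 3 UNx lists alone met the filter of 3 lists.

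The other genes of the pathway gave a similar picture at their promoters. Of 66 listed genes, 61 had a tested promoter region. Mafg, Gpx2, Cbr1 and Aldh3a1 had no region within 1 kb of a start, and Aox1 was in 1 list. limma called 0 of the 61, against 0.394% of all tested coding promoters. Without adjustment 13 of the 61 had a p under 0.05, against 1740 of the 13203 tested coding promoters. The groups did not overlap at 14 (23.0%, 9 higher and 5 lower after UNx), against 19.9% of all coding promoters (9.26% and 10.6%). The median difference was −0.141 points over the list and −0.190 over all coding promoters. By branch, the medians were −0.544 over 14 regulators, 1.51 over 9 glutathione genes, −1.52 over 9 thioredoxin and peroxiredoxin genes, 0.642 over 6 genes of NADPH supply, −2.18 over 7 heme and iron genes and 3.65 over 16 detoxification and export genes. In the last of these the groups did not overlap at 3 of the 16 promoters (18.75%), all higher after UNx, which is close to the 19.9% of all coding promoters.

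Among the regulators, Maff encodes a small MAF protein and Bach1 a repressor that competes with NRF2 at antioxidant response elements. The Maff promoter stood at 40.5 ± 5.56 in Sham and 68.1 ± 12.1 in UNx libraries (SD over 3 libraries each; difference 27.7, adjusted p = 0.0894 in limma). The Bach1 promoter stood at 97.1 ± 2.29 and 89.8 ± 3.59 (SD over 3 libraries each; difference −7.24, adjusted p = 0.0836 in limma), and it was the 1 promoter of the list that limma called with normal scores. At the Maff and Bach1 promoters all UNx values lay on one side of all Sham values. The promoter of Mafk, another small MAF gene, stood at 77.3 ± 5.90 in Sham and 75.2 ± 12.6 in UNx libraries (SD over 3 libraries each), and its groups overlapped.

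In the glutathione and detoxification branches, the promoters among the 3 highest and 3 lowest differences of the list whose groups did not overlap belonged to Gsta4, a glutathione transferase for products of lipid peroxidation, Chac1, which degrades glutathione, and Gpx3, a secreted glutathione peroxidase that the proximal tubule makes. Gsta4 stood at 15.4 ± 8.17 in Sham and 47.6 ± 22.3 in UNx libraries (SD over 3 libraries each; adjusted p = 0.159 in limma). Chac1 stood at 58.9 ± 3.27 and 75.6 ± 5.06 (SD over 3 libraries each; adjusted p = 0.131 in limma). Gpx3 stood at 92.5 ± 1.46 and 86.4 ± 1.47 (SD over 3 libraries each; adjusted p = 0.149 in limma). None passed the threshold.

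**Figure D5:**
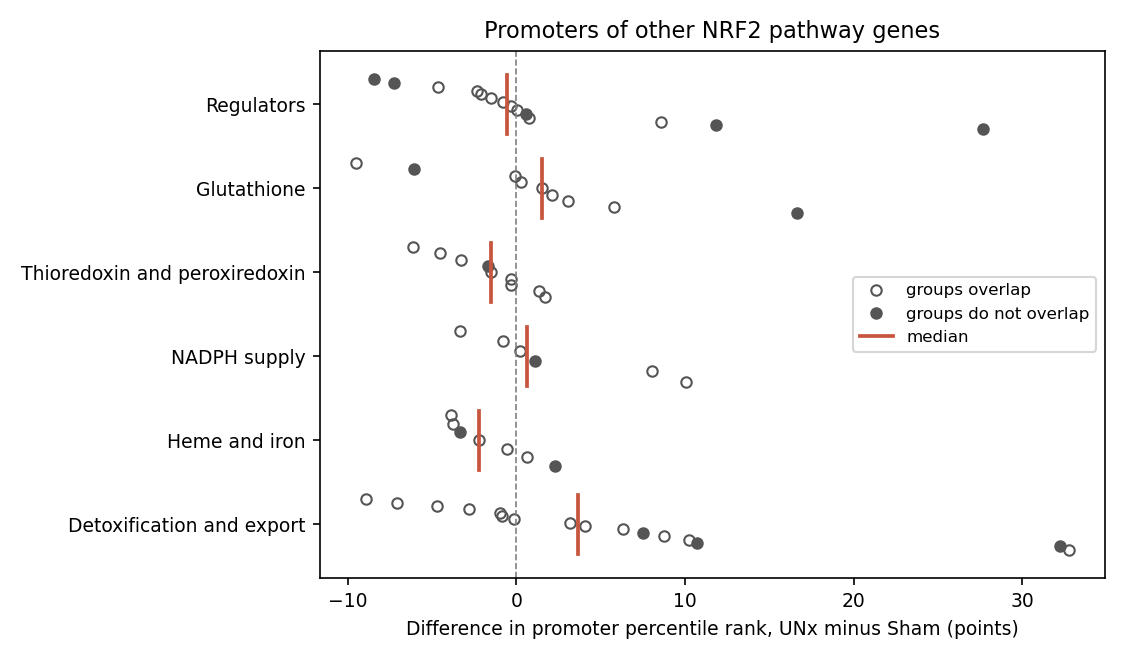
Difference in promoter percentile rank (UNx minus Sham, in points) of the 61 tested genes of the pathway list, one point per gene in 6 branches, with a red bar at the median of each branch and filled points where the groups do not overlap. Maff (27.7) and Gsta4 (32.2) lie far to the right among the filled points, and most genes lie near 0.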

How the data were processed

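ATAC-seq peaks of 3 Sham and 3 UNx libraries were used, grouped by the labels. The authors deposited 1 narrowPeak list per library, giving for each peak its summit, a display score, a fold enrichment (a ratio) and the −log10 of its p and q. These deposited values are the authors' own and served only to rank peaks within a list. Per the submitters' processing notes, cutadapt 3.4, Bowtie, SAMtools, Picard and MACS2 2.2.7.1 and the build mm10 were used. Their order, settings and filter are not given in the sources used here. Read depth is unknown.

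A peak was 1 interval with its strongest summit. Each list was reduced to the 77355 strongest peaks, and ranked by −log10 q. Intervals overlapping by at least 1 bp were merged, and regions in at least 3 lists were tested on the percentile rank with limma 3.58.1 in R 4.3.3 (two-sided, lmFit and eBayes with trend and robust set on, p adjusted by Benjamini-Hochberg over all 74781 regions, threshold 0.05). The limma step was tested on simulated data. Starts come from GENCODE M21 (basic set), sequences from RefSeq GRCm38. Counts per library were compared by exact permutation tests. Motifs were searched with Python 3.11.15.

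The members, the pathway list and the tests were chosen with earlier results of these data known. Named by rule were each gene's promoter and strongest distal region, the 5 smallest p, regions of one operation only, regions with the antioxidant response string, and of the pathway list the 3 largest differences each way among promoters whose groups did not overlap. One promoter that this rule selects is not reported here. Other settings were all deposited peaks, the 20000 strongest, fold enrichment, a −log10 q minimum of 5, 50% overlap, summit windows, no list filter, GC-corrected ranks, normal scores, plain eBayes, gene windows of 5 and 50 kb, promoters of 2.5 kb, 3 other motif settings, a replicate block and each library left out.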

Additional observations from a re-analysis of the deposited data

How the results depend on the processing

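limma called 0 of the member regions under every alternative run except normal scores, where it called 1 (Hmox1 at −6322 bp; adjusted p = 0.0434, range over its alternatives 0.0434 to 0.239). The 589 changed regions of the whole series became 22 with all deposited peaks, 2 with the 20000 strongest peaks, 3 with fold enrichment, 2 with all merged regions tested, 2 with GC-corrected ranks, 1583 with normal scores and 30 to 379 with one library left out. The cause was not tested.

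Member regions whose groups do not overlap numbered 3 with the 20000 strongest peaks, 11 with 5 kb and 28 with 50 kb around the gene, where fewer or more regions enter. Regions of one operation only numbered 0 with the 20000 strongest peaks, 6 with summit windows and 3 to 5 with one library left out. The difference in regions per library was −2.33 with the 20000 strongest peaks and −1.67 with fold enrichment. The distal median was −9.98 with the 20000 strongest peaks. The promoter median was −5.89 with the 20000 strongest peaks, −7.72 with fold enrichment, −4.02 with summit windows and −3.54 with GC-corrected ranks. Regions with the antioxidant response string numbered 8 within 50 bp of the summit, 7 with a further A required at its end and 26 over the whole region. The pathway list had 1 call with normal scores (Bach1).

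Of 31 named regions tested, 22 kept their direction throughout and 9 did not, in 33 of 527 alternative values. Among the 22 are Osgin1 at −3329 and −8590 bp and Txnrd1 at 4628 bp, which were at 0 in every list of one operation. Leaving out a library could not change their direction. Regions named for the smallest p are also among the 22, so the count is not a measure of robustness. With all deposited peaks the promoters of Keap1 and Nfe2l2 had differences of 1.51 and 0.34, and with normal scores that of Nfe2l2 was 0.0043. With fold enrichment the values were 2.19 (Gclc at 52434 bp), −4.66 (Nqo1 promoter), −5.18 (Osgin1 at 3379 bp), 1.19 (Slc7a11 at 61907 bp) and −1.86 (Srxn1 promoter). With summit windows the Srxn1 promoter gave −26.7, and 3 other regions moved far without a change of sign, to −28.9 (Keap1 promoter), −49.3 (Slc7a11 at 61907 bp) and 25.7 (Osgin1 at 3379 bp). With GC-corrected ranks, with or without the replicate block, they were −0.349 (Nqo1 promoter), −0.243 (Osgin1 at 3379 bp), −0.0238 (Srxn1 promoter) and −0.188 (Srxn1 at 6606 bp). With one library left out the ranges were −3.19 to 2.31 (Keap1 promoter), −2.91 to 2.19 (Nfe2l2 promoter), −0.698 to 2.66 (Nqo1 promoter), −3.42 to 3.33 (Osgin1 at 3379 bp), −7.52 to 0.134 (Slc7a11 at 61907 bp), −1.35 to 2.53 (Srxn1 promoter), −2.45 to 2.32 (Srxn1 at 6606 bp) and −3.69 to 0.449 (Txnrd1 promoter). None of these 9 was near the threshold in the reported fit.

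Deviations of libraries with the same replicate number correlated at 0.00819, −0.100 and −0.0496, and the numbers were therefore not taken as pairs. Under the replicate block 56 regions of the series were called (35 higher and 21 lower) and 0 members, and with the block and GC-corrected ranks 0 of either. Depth is unknown, so absence from a list cannot be told from too few reads.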
